A study of Mus musculus with 6 samples.

Results

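The genes of MHC class II antigen presentation were followed across 6 Affymetrix Mouse430A arrays of CD4+CD25+ regulatory T cells (Tregs), 3 from WT mice and 3 from HDAC11-/- Tregs. The group is 10 genes, H2-Aa, H2-Ab1, H2-Eb1, Cd74, H2-DMa, H2-DMb1, H2-DMb2, H2-Oa, H2-Ob and Ciita. Its members were every probe set, the unit of measurement on the array, that the platform annotation assigns to exactly 1 of these symbols, which gave 12 of the 22626 probe sets and 8 of the 12393 genes measured. H2-DMb1 and H2-Ob had only probe sets shared with a second gene, and the 3 shared probe sets are described apart. The genes were selected on the same difference between genotypes that is reported here, so their fold changes and calls are given as a description and carry no p-value.

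WT Tregs came from C57BL6 mice. The HDAC11-/- Tregs carried the label fl-HDAC11/Foxp3cre, for mice that are homozygous for a floxed Hdac11 allele and express Cre recombinase with YFP from Foxp3, the lineage factor of Tregs, and that had been backcrossed to the same strain. By this design Cre acts in cells that express Foxp3, and any other cell type left in the fraction would keep an intact Hdac11. The arrays do not check this. No treatment is given for either group, and the labels do not state that the WT mice carried Cre. Both groups were separated with magnetic beads, a method that enriches Tregs and can leave other cells among them. The labels do not say whether each array was its own mouse, so a p-value covers the spread between these arrays, which may be technical.

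MHC class II molecules carry peptides from endocytosed proteins to the cell surface, where CD4 T cells read them. An alpha and a beta chain are assembled in the endoplasmic reticulum around the invariant chain (Cd74), which fills the groove until endosomal proteases cut it down to the fragment CLIP. H2-DM then exchanges CLIP for peptide, and H2-DO holds H2-DM back. The genes are switched on by Ciita, a coactivator that binds no DNA itself and is recruited by the factors RFX, CREB and NF-Y, which sit side by side on the X and Y boxes of the promoters. B cells, dendritic cells and activated macrophages are the main class II cells of lymphoid organs, and conventional mouse T cells make little or no class II.

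The promoter letters of the members that these boxes would occupy are shown first, because they are the feature the genes share outside the arrays. RefSeq promoter windows (GRCm38.p6, 300 bases around the start of the gene) were matched for 7 of the 10 genes, with 8 windows in all because H2-DMa had 2. Cd74 was not searched, and there was no window for H2-Ab1 and Ciita. In 6 of the 7 genes a match to an X element lay within 30 bases before a Y box core on the strand of the gene. The letters searched were GATTGG for the Y box core, and GCAAC or AACNNATGA for the X element, which overlap by 3 letters where both occur. TGACGTCA, the full CREB site, was searched as well. The letters were chosen after the windows had been looked at. Capitals mark these matches, and each stretch runs 5′ to 3′ on the strand of the gene.
H2-Aa, chr17:34287853-34287932, minus strand: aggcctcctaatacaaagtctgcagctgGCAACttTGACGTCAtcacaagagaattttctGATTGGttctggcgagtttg
H2-Eb1, chr17:34305747-34305826, plus strand: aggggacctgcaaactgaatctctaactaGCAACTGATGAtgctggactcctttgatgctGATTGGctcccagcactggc
H2-DMb1, chr17:34153069-34153148, plus strand: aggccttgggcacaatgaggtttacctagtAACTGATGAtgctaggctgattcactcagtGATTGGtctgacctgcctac
H2-DMb2, chr17:34145098-34145177, plus strand: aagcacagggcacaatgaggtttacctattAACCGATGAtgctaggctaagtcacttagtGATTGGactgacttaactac
H2-Oa, chr17:34092275-34092354, plus strand: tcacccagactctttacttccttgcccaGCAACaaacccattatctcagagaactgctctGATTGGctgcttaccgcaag
H2-Ob, chr17:34238787-34238866, plus strand: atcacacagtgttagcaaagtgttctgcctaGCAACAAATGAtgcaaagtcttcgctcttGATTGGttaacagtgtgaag
H2-DMa, second window, chr17:34125268-34125338, plus strand: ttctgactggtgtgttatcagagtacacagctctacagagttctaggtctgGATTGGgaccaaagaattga

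The bases to the Y box core were counted from the end of the X match that lay nearest to it. From GCAAC, 27 bases lay between in H2-Aa and H2-Oa. From AACNNATGA, which ends closer to the Y box core, there were 21 in H2-DMb1 and H2-DMb2, 20 in H2-Eb1 and 18 in H2-Ob. Counts from unlike X letters are not comparable. An X match followed within 30 bases by a Y box core was found in 0.514% of 32851 RefSeq windows of the same length. That share counts the arrangement on either strand, whereas the members are given on the strand of the gene. Singly, and on either strand, GATTGG occurred in 16.1% of the windows, GCAAC in 35.2%, AACNNATGA in 2.85% and TGACGTCA in 1.79%. The H2-Aa window held a full TGACGTCA between the X match and the Y box core. H2-DMa had neither arrangement in its 2 windows and 1 Y box core in the second, which says only that the pair of boxes, as spelled here, is not in those windows. The arrangement was present both in genes whose probe sets were called lower on the arrays, such as H2-Aa and H2-Eb1, and in H2-Oa, whose probe set was not called.

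Values below are RMA expression on the log2 scale, so that a difference of 1 is a doubling of the signal, and fold changes are HDAC11-/- over WT. A probe set was called when limma gave a Benjamini-Hochberg adjusted p under 0.05 over all probe sets and the difference was at least 1.5-fold. A gene is represented by its brightest probe set over the 6 arrays. Levels of different probe sets are not compared, because probes differ in how well they bind. The brightest bacterial control of each array, between 5.06 and 5.48, served as the limit of detection, and a group with no array above it is given only a bound. The median SD between arrays of all probe sets was 0.09 in WT and 0.07 in HDAC11-/- Tregs. Hdac11 gave 6.31, 6.36 and 6.53 in WT and 6.36, 6.28 and 6.22 in HDAC11-/- Tregs in its brighter probe set, and these ranges overlap. The sources used here do not place its probes relative to the floxed part, so the genotypes are those of the labels, without a check by the arrays.

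The classical class II chains and the invariant chain were lower on every HDAC11-/- array than on every WT array, by 1.73-fold for Cd74 to 3.04-fold for H2-Aa, while H2-DMa and H2-Oa differed by less than 1.10-fold. Of the 12 probe sets 8 were called lower and 0 higher, beside 5.03% of all 22626 probe sets called lower and 3.87% called higher. By brightest probe set 4 of 8 genes were called lower and 0 higher, beside 3.72% and 3.46% of all genes. In 11 of the 12 probe sets the groups did not overlap, beside 28.5% of all probe sets with every HDAC11-/- array below every WT array. The median log2 fold change was -0.88 over the member probe sets and -0.03 over all probe sets. All 12 were below 0 on the deposited scale, but 4 turned above 0 (H2-DMa, H2-Oa, H2-DMb2 and the brighter Ciita probe set) when the arrays were scaled on the cre control probe sets. Since the rule used this contrast, nothing is read from the counts.

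H2-Aa encodes the alpha chain of I-A, the class II molecule of C57BL/6 mice. Its brighter probe set gave 11.19, 11.22 and 11.18 in WT Tregs and 9.58, 9.56 and 9.64 in HDAC11-/- Tregs. The genotypes were far apart, with a range within each of less than 0.08. The log2 fold change was -1.60 (SE 0.05, n = 3 arrays per genotype), and it ranked 111 from the lowest of all 22626 probe sets. The second H2-Aa probe set gave 9.17, 9.13 and 9.22 in WT and 7.76, 7.76 and 7.87 in HDAC11-/- Tregs, which is -1.38 (SE 0.05) as a log2 fold change. Both probe sets thus moved the same way, by 3.04-fold and 2.60-fold.

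H2-Ab1 encodes the beta chain that pairs with H2-Aa. The brightest of its 3 probe sets gave 9.43, 9.37 and 9.49 in WT Tregs and 7.96, 8.06 and 7.98 in HDAC11-/- Tregs, with no overlap. It was 2.70-fold lower, a log2 fold change of -1.43 (SE 0.05), close to that of its partner chain. The other probe sets were at 8.14 ± 0.12 (SD, n = 3) in WT against 6.75 ± 0.09 (SD, n = 3), a log2 fold change of -1.38 (SE 0.08), and at 7.67 ± 0.13 against 6.71 ± 0.15, a log2 fold change of -0.97 (SE 0.10). The last one was 1.95-fold lower, and its lowest WT array, at 7.52, lay above its highest HDAC11-/- array, at 6.80.

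H2-Eb1 encodes the beta chain of I-E, whose alpha chain gene H2-Ea is defective in C57BL/6 mice, so that no I-E reaches the surface although H2-Eb1 is transcribed. Its single probe set gave 9.59, 9.66 and 9.67 in WT Tregs and 8.51, 8.34 and 8.42 in HDAC11-/- Tregs. The difference, -1.22 on the log2 scale (SE 0.06) or 2.32-fold, was far larger than the SD of either genotype, 0.04 in WT and 0.09 in HDAC11-/- Tregs. H2-Eb1 is the one called member probe set without a suffix in its name. The suffixes mark probe sets that match several transcripts of a gene or may pick up other sequences. All 7 member probe sets with a suffix were called lower, and 1 of the 5 without. Over the whole array 4.30% of the 7021 probe sets with a suffix and 5.36% of the 15605 without were called lower.

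Cd74 encodes the invariant chain, which also serves as a receptor for the cytokine MIF. Its probe set gave 10.63, 10.72 and 10.74 in WT Tregs and 9.96, 9.89 and 9.89 in HDAC11-/- Tregs. The groups did not overlap. The fall of 0.79 on the log2 scale (SE 0.05), 1.73-fold, was smaller than that of the 3 chain genes, a difference between genes that was not tested. Its call was lost on the cre scale, where the log2 fold change was -0.30.

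**Figure D1:**
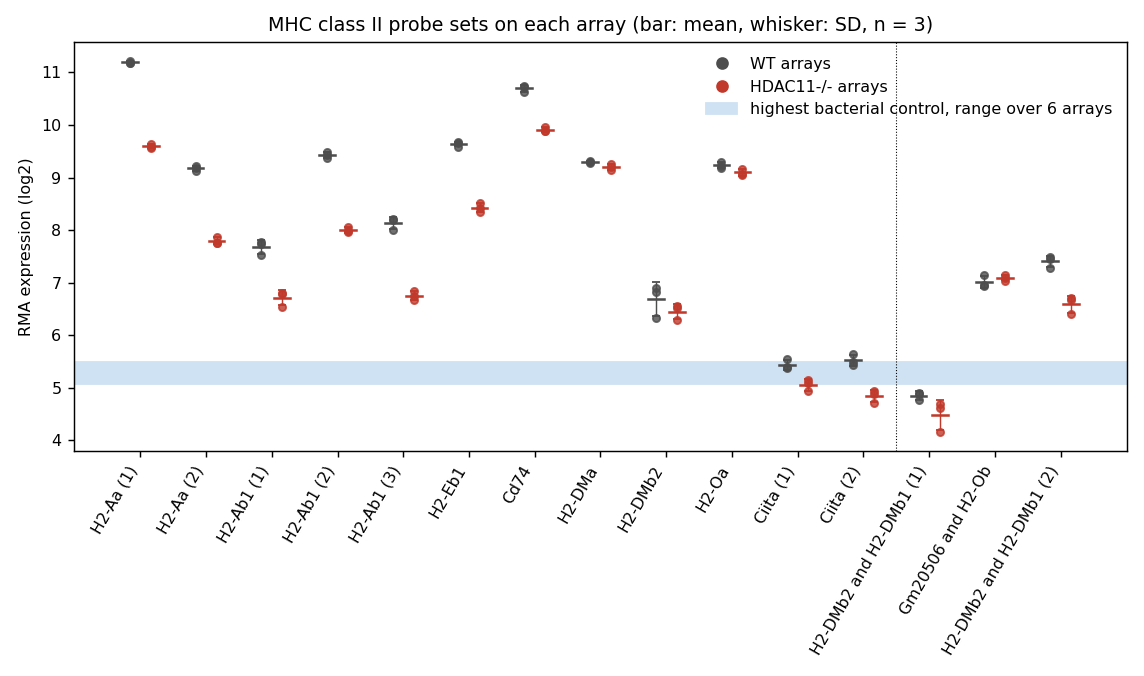
RMA expression (log2, vertical axis) of the 12 member probe sets and, right of the dotted line, the 3 shared ones, on 3 WT arrays (grey) and 3 HDAC11-/- arrays (red), with bars for the mean, whiskers for the SD and a blue band for the highest bacterial control over the 6 arrays (5.06 to 5.48). Numbers in brackets tell probe sets of a gene apart. The red points lie well below the grey ones for H2-Aa, H2-Ab1, H2-Eb1 and Cd74, as in H2-Aa at 9.56 to 9.64 against 11.18 to 11.22, and nearly level with them for H2-DMa and H2-Oa.

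Of the peptide editors, none with a probe set of its own was called. H2-DMa, the alpha chain of H2-DM, gave 9.29, 9.27 and 9.31 in WT Tregs and 9.14, 9.21 and 9.25 in HDAC11-/- Tregs. The groups were close and did not overlap, and the log2 fold change of -0.09 (SE 0.05) was not called and turned to 0.39 on the cre scale. H2-DMb2, one of the neighbouring genes for the beta chain of H2-DM, gave 6.90, 6.83 and 6.32 in WT and 6.55, 6.28 and 6.51 in HDAC11-/- Tregs. Here the groups overlapped, with WT replicate 3 below 2 of the HDAC11-/- arrays, and the log2 fold change was -0.24 (SE 0.16), or 0.25 on the cre scale.

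A probe set that the annotation gives to both H2-DMb2 and H2-DMb1 behaved differently from the H2-DMb2 one. It gave 7.28, 7.48 and 7.44 in WT Tregs and 6.41, 6.70 and 6.66 in HDAC11-/- Tregs. The groups did not overlap, and the probe set was called 1.76-fold lower, at -0.81 (SE 0.09) on the log2 scale. The share of either gene in this signal cannot be told apart. The other probe set shared by these genes did not rise above the bacterial controls in either genotype, and no fold is given for it.

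The H2-DO chains differed little between genotypes. H2-Oa, the alpha chain of H2-DO, gave 9.21, 9.30 and 9.19 in WT Tregs and 9.06, 9.07 and 9.17 in HDAC11-/- Tregs. The lowest WT and the highest HDAC11-/- array nearly met, and the log2 fold change of -0.14 (SE 0.06) was not called and was 0.35 on the cre scale. The probe set shared by H2-Ob, the beta chain, and Gm20506 gave 6.95, 6.94 and 7.15 in WT and 7.14, 7.09 and 7.04 in HDAC11-/- Tregs. These values overlapped, with a log2 fold change of 0.08 (SE 0.07). In textbook accounts H2-DO is made mainly by B cells and some dendritic cells.

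Ciita, the coactivator of all these genes, lay near the limit of detection. Its brighter probe set over the 6 arrays gave 5.54, 5.37 and 5.40 in WT Tregs and 4.93, 5.09 and 5.15 in HDAC11-/- Tregs, above the bacterial controls on 2 of 3 arrays of each genotype. The log2 fold change was -0.38 (SE 0.08), which was not called, and 0.11 on the cre scale. The other probe set gave 5.64, 5.43 and 5.48 in WT, above the controls on 2 of 3 arrays, and 4.71, 4.94 and 4.89 in HDAC11-/- Tregs, all within the control range. This probe set was called lower on the deposited scale. There, with the WT values taken as measured, the controls put the fall at 1.30-fold or more. On the cre scale the call was lost. Ciita was the one member gene with probe sets near the controls, and the other 10 member probe sets lay above them on all 6 arrays.

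The members other than Cd74 and Ciita lie in one stretch of the class II region, which RefSeq orders as H2-Oa, Brd2, H2-DMa, H2-DMb2, H2-DMb1, Psmb9, Tap1, Psmb8, Tap2, H2-Ob, H2-Ab1, H2-Aa, H2-Eb1, H2-Eb2 and H2-Ea. The 3 large differences sat side by side in H2-Ab1, H2-Aa and H2-Eb1, and the genes between H2-Ob and the DM genes, which load MHC class I, were not called. Psmb9 and Psmb8, subunits of the immunoproteasome, had log2 fold changes of -0.03 and -0.08. Tap1 and Tap2, the peptide transporter, were at -0.40 (adjusted p = 0.000824 from limma, n = 3 per genotype) and -0.11, and neither reached 1.5-fold. Brd2, a bromodomain protein gene, was at -0.03 in its brightest probe set and at -0.69 in another, which was called (adjusted p = 0.00483 from limma).

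At the other end, the brightest H2-Ea probe set gave 8.29, 8.20 and 8.10 in WT and 7.46, 7.72 and 7.81 in HDAC11-/- Tregs. It stayed short of 1.5-fold at -0.54 on the log2 scale (SE 0.10), with an adjusted p from limma of 0.00559, but passed it at -0.61 without HDAC11-/- replicate 3 and at -0.67 when scaled on the reference genes. Its 2 other probe sets did not rise above the bacterial controls. Farther out, Ring1, Rxrb, Slc39a7 and Col11a2 were at -0.13, -0.24, -0.01 and -0.35. In all, 0 of 10 measured neighbours were called in either direction by limma at their brightest probe set and 5 were lower by the adjusted p of 0.05 alone, while the list median was -0.12.

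**Figure D2:**
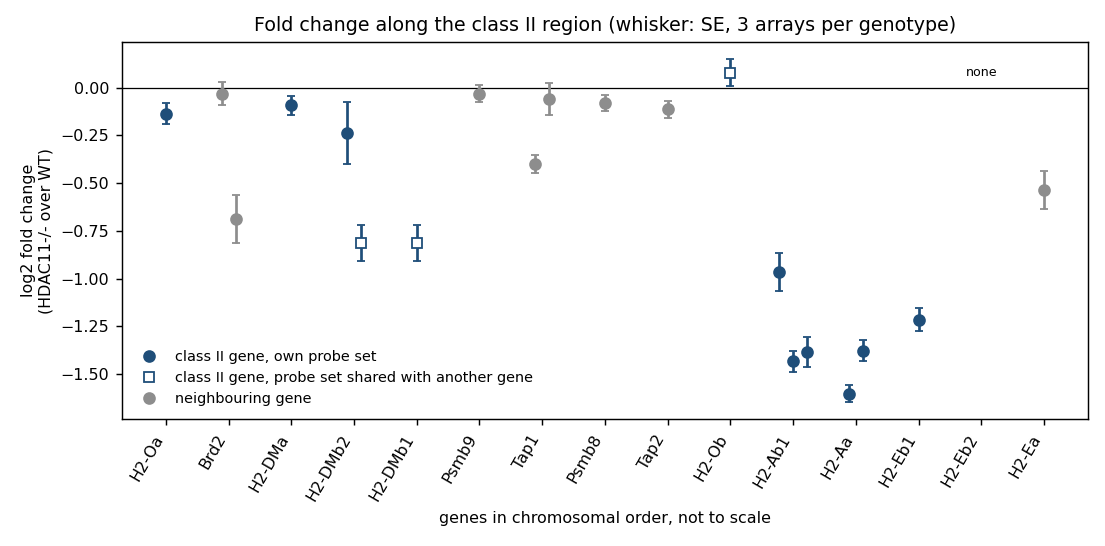
Log2 fold change (HDAC11-/- over WT, whiskers show the SE) of each probe set above the bacterial controls for the genes of the class II region in chromosomal order, with class II genes in blue (open squares for shared probe sets, the pair of H2-DMb2 and H2-DMb1 drawn under both names) and other genes in grey. H2-Ab1, H2-Aa and H2-Eb1 lie between -1.60 and -0.97, while Psmb9, Psmb8 and Tap2 lie between -0.11 and -0.03 and the brightest Tap1 probe set at -0.40.

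Genes that regulate class II transcription were mostly not called. Of 21 measured, which take in the factors of the X and Y boxes, coactivators, interferon regulatory factors and the interferon-gamma receptor with its kinases, 1 was called higher and 0 lower at the brightest probe set, with a median log2 fold change of -0.04, beside -0.04 over all genes. The 3 RFX subunits went different ways: Rfx5 was at -0.13, Rfxank at -0.30 (adjusted p = 0.00302 from limma; 0.20 and 0.08 in its dimmer probe sets) and Rfxap at 0.47 (adjusted p = 0.00113). The NF-Y subunits Nfya, Nfyb and Nfyc were at 0.12, 0.13 and 0.01. Creb1 rose from 7.36 ± 0.10 to 7.97 ± 0.02 (SD, n = 3), by 0.61 on the log2 scale (limma SE 0.06, adjusted p = 0.000434). That call was lost without WT replicate 3, at 0.57, and on the scale of the reference genes, at 0.48, and of its other probe sets above the controls 1 was at 0.31 (adjusted p = 0.0151) and 1 at -0.17. A dimmer probe set was called lower in Smarca4, a chromatin remodeller, at -1.12 (adjusted p = 0.00204 from limma), and in Jak1, at -1.24 (SE 0.39, adjusted p = 0.0398), while their brightest ones were at -0.16 and -0.19.

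Genes that prepare antigen and CLIP in endosomes were level or somewhat higher. Of 13 measured, 1 was called higher and 0 lower, and the median log2 fold change was 0.19. Lgmn, the asparaginyl endopeptidase that begins the cutting of the invariant chain, rose in every HDAC11-/- array, from 6.16 ± 0.09 to 7.48 ± 0.10 (SD, n = 3), by 1.32 on the log2 scale (adjusted p = 4.77e-05 from limma). Ctss, the cathepsin that makes CLIP in B cells and dendritic cells, had a log2 fold change of 0.01. Ifi30, a thiol reductase of endosomes, was at 0.35 (adjusted p = 0.00131) without reaching 1.5-fold. On the cre scale Ifi30, Ctsl, Ctsb, Ctsd, Ctsz, Sppl2a and Lamp2 were called higher, as were 7310 of all 22626 probe sets. Among 6 measured turnover and membrane partner genes 0 were called in either direction at the brightest probe set by limma, and Rab7, at 0.29 (adjusted p = 0.00202), was the 1 that passed the adjusted p alone. A dimmer probe set of Cd37, a tetraspanin, was called lower at -1.89.

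Costimulatory ligands, which antigen-presenting cells show together with class II, were mostly not called. Icosl, the ligand of ICOS, was the 1 of 12 measured that was called, at -0.64 (limma SE 0.07, adjusted p = 0.000602), and the call was lost on the cre scale at -0.16. Cd86, a ligand of CD28 and CTLA-4, was at -0.41 (adjusted p = 0.000835) and Cd80 at 0.07, and neither was called. Tnfsf4, the ligand of OX40, was at -0.58, just under the threshold. It passed the threshold without WT replicate 1 at -0.65, without HDAC11-/- replicate 3 at -0.61 and on the scale of the reference genes at -0.71. The list median was -0.15.

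Markers of other class II cells moved with genotype beside these values, and in a bulk sample fewer cells of a type and less RNA per cell cannot be told apart. By brightest probe set B cell genes fell in 7 of 17 measured and rose in 0, with a median of -0.44. Blk, a B cell kinase that gamma delta T cells also make, fell by 2.48 on the log2 scale (adjusted p = 8.64e-06 from limma), and Ms4a1, which encodes CD20, was at -1.84 (adjusted p = 2.73e-05). Ly6d and Cd22 fell by 0.94 and 0.65. Cd79a, part of the B cell receptor, gave 6.94, 7.06 and 6.78 in WT and 6.11, 6.19 and 6.24 in HDAC11-/- Tregs, a fall of 0.75, and Cd79b was at -0.36 without a call. Of the 17 genes 5, among them the B cell factors Pax5 and Ebf1, did not rise above the bacterial controls in either genotype.

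The summed linear signal of the B cell list was 12931 to 13428 on the WT arrays and 11164 to 11261 on the HDAC11-/- arrays, a ratio of 0.852, beside 0.523 for the 8 class II genes. Most of the B cell sum is Ighm, the immunoglobulin heavy chain gene, at 13.32 and 13.21. Without it the other 16 genes summed to 2914 to 2924 in WT and 1697 to 1744 in HDAC11-/- Tregs, a ratio of 0.590. Bright probe sets weigh most in such a sum. Blk, which had the highest WT mean of these 16, went from 9.35 to 6.86, and no sum was taken without it. Of the 11 Ighm probe sets 5 dimmer ones were called higher, such as one at a log2 fold change of 1.88 (adjusted p = 8.40e-06 from limma). The mean log2 level of the B cell list went from 6.93 to 6.95 in WT to 6.30 to 6.34 in HDAC11-/- Tregs, and that of H2-Aa, H2-Ab1, H2-Eb1 and Cd74 from 10.21 to 10.27 to 8.96 to 9.00. On the cre scale 2 of the 17 B cell genes kept a call, Blk and Ms4a1. The part of B cells in the class II difference was not tested.

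Dendritic cell markers did not move in one direction. Of 12 measured genes of conventional dendritic cells 0 were called in either direction by limma at the brightest probe set, 2 fell and 2 rose by the adjusted p alone, and the median was 0.03. Itgax, which encodes CD11c, was at -0.39 and Flt3 at 0.11, and 4 of the 12 did not rise above the bacterial controls in either genotype. The summed signal was 2089 to 2177 in WT and 2485 to 2569 in HDAC11-/- Tregs, a rise carried by the bright genes Cst3 and Fscn1, at 0.31 and 0.34. Without both, the sum was 548 to 608 in WT and 566 to 597 in HDAC11-/- Tregs. Spib, a factor of plasmacytoid dendritic cells and B cells, was the 1 called of 6 genes of plasmacytoid dendritic cells, at -0.89 (adjusted p = 0.000403 from limma). Sdc1, which encodes CD138, was the 1 called of 6 plasma cell genes, at -0.76 (adjusted p = 0.000272). Both calls were lost on the cre scale. There Flt3, Naaa, Fscn1, Ccl22 and Cst3 of the conventional dendritic cell list were called higher, as were 7310 of all 22626 probe sets.

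Several macrophage genes were higher where the class II chains were lower. Of 23 measured 7 were called higher and 0 lower, with a median of 0.22. None of those 7 was above the controls on every WT array. Fcgr3 fell by 0.50 (adjusted p = 0.0204 from limma), short of 1.5-fold. It was called lower on the scale of the reference genes, at -0.63, and without HDAC11-/- replicate 2, at -0.62. Vcam1, an adhesion molecule of splenic macrophages and stroma, was at 1.35 (adjusted p = 0.00232 from limma) and Lyz1, a lysozyme, at 0.94 (adjusted p = 0.000609), each above the controls on 1 of 3 WT arrays. For C1qa, whose WT arrays all lay within the control range, the rise was at least 1.16-fold, and Mrc1 was within it in both genotypes, as were 9 of the 23 genes. Csf1r was at -0.02 in its brightest probe set and was called higher at 1.13 and 0.73 in the other 2, and Adgre1, which encodes F4/80, was within the control range. The summed signal was 969 to 1038 in WT and 1181 to 1216 in HDAC11-/- Tregs. Calls of C1qa, C1qb, C1qc and Cd5l were lost on the scale of the reference genes. No WT array lay above the controls in any of these genes, and in C1qb no HDAC11-/- array did either. Their fold changes are therefore not given. The call of C1qc was lost also without HDAC11-/- replicate 2 or WT replicate 1, and that of Cd5l without WT replicate 1.

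Type 3 innate lymphoid cells, which can carry class II, and Th17 cells share a list in which 5 of 7 measured genes were called lower and 0 higher. Tmem176a and Tmem176b, a pair of membrane channel genes, fell by 1.46 and 1.32 on the log2 scale, Il1r1 by 1.30 and Ccr6 by 1.07, with adjusted p from limma of 5.49e-06 to 0.000120, and Kit by 0.86. The summed signal went from 4469 to 4749 in WT to 2548 to 2678 in HDAC11-/- Tregs, a ratio of 0.564. Tnfsf11 went the other way, at 0.25 (adjusted p = 0.0303 from limma), without reaching 1.5-fold. On the cre scale it was called higher, at 0.74, and the calls of Ccr6 and Kit were lost. The part of these cells in the class II difference was not tested.

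Markers of the separated cells themselves were not called at their brightest probe sets. A dimmer probe set was called lower in Zap70, at -0.65 (adjusted p = 0.000468 from limma). Another was called lower in Cd247, with its HDAC11-/- arrays all within the control range. Of 13 T cell genes and 12 Treg genes 0 were called in either direction by limma at the brightest probe set, with medians of -0.04 and 0.00, although 3 T cell genes fell and 1 rose, and 5 Treg genes fell and 2 rose, by the adjusted p alone. Cd3e was at 12.29 ± 0.04 in WT and 12.27 ± 0.02 in HDAC11-/- Tregs (SD, n = 3), and Il2ra, which encodes CD25, at 10.95 ± 0.09 and 10.94 ± 0.05. Cd4 was at -0.32 (adjusted p = 0.00121 from limma) without a call. Foxp3 did not rise above the bacterial controls on any of the 6 arrays, so that the arrays give no level of the factor that drives Cre.

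**Figure D3:**
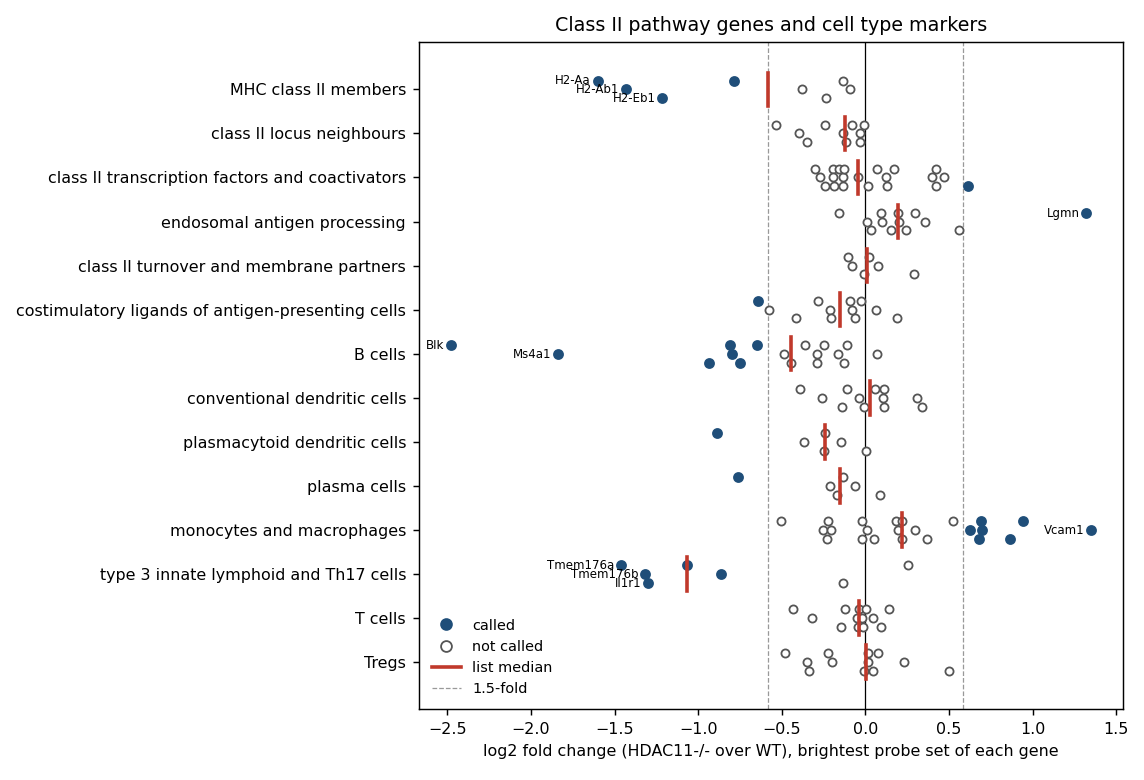
Log2 fold change (HDAC11-/- over WT) of the brightest probe set of each measured gene, by list, with filled points for called genes, open points for the others, a red bar for the list median and dashed lines at 1.5-fold. Class II members (median -0.58), B cell genes (-0.44) and type 3 lymphoid and Th17 genes (-1.07) lie to the left, macrophage genes (0.22) to the right, and T cell and Treg genes around 0.

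**Figure D4:**
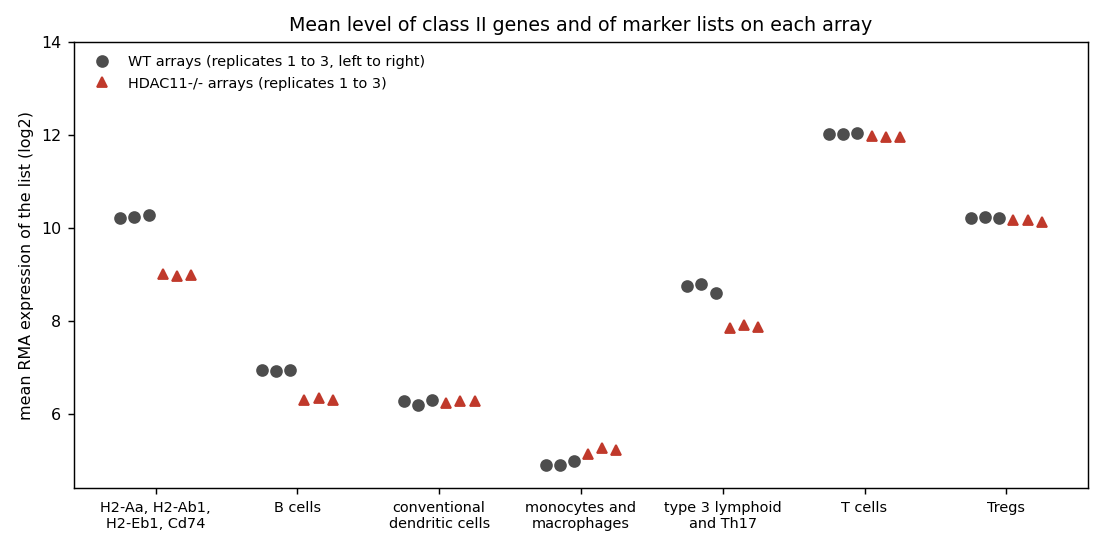
Mean RMA expression (log2) of H2-Aa, H2-Ab1, H2-Eb1 and Cd74 and of 6 marker lists on each array, 3 WT (grey circles) and 3 HDAC11-/- (red triangles) from left to right within a list. The class II mean is 10.21 to 10.27 in WT and 8.96 to 9.00 in HDAC11-/- Tregs, while the T cell mean stays between 11.95 and 12.05.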

How the data were processed

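Total RNA of bead-separated CD4+CD25+ Tregs was amplified, biotin-labelled and hybridised to Mouse430A arrays by the authors, who normalized the arrays by RMA, a method that subtracts background, brings all arrays to one distribution and condenses each probe set to one value. The deposited values are log2 expression, 1 per probe set and array, and were used without further normalization, so any shift that RMA removed cannot be seen. No array column was left unused. Of 22671 probe sets, 45 controls were left out. The platform annotation gave 20380 probe sets 1 symbol, 691 several and 1555 none.

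The genotypes were compared in R 4.3.3 by limma 3.58.1 (lmFit, eBayes), with Benjamini-Hochberg adjustment over 22626 probe sets, an adjusted p under 0.05 and 1.5-fold as thresholds. Dim probe sets were kept. The number of arrays limits the precision. The members, gene lists and named genes were chosen with earlier results of these data known. Named were all members, all measured locus neighbours, up to 4 called genes per list and direction by adjusted p, usual defining markers, and the 10 probe sets nearest in pattern. Named beyond this rule after their values were seen were the RFX and NF-Y subunits, Ctss, Ifi30, Rab7, Cd37, Cd80, Cd86, Tnfsf4, Smarca4, Jak1, Pax5, Ebf1, Ighm, Cst3, Fscn1, C1qb, C1qc, Cd5l, Kit and Hdac11. The same holds for Fcgr3, Zap70, Cd247, Tnfsf11, Naaa, Ccl22, Ctsl, Ctsb, Ctsd, Ctsz, Sppl2a and Lamp2. Promoter windows came from RefSeq (GRCm38.p6). The sources used here name no genome build for the array annotation, and no probe position is printed. Scripts were tested on simulated data. Alternatives were SAM (the methods' test, with all 20 labelings), a replicate block, array weights, a robust prior with an intensity trend, scaling on 13 reference genes, 27 bacterial or 3 cre control probe sets, the brighter probe sets alone (mean over the 6 arrays above the median), other thresholds, probe sets without a suffix, the probe set brightest in WT or any probe set for a gene, and each array left out in turn. Sums without Ighm, and without Cst3 and Fscn1, were added after seeing the data. Figures were drawn with matplotlib 3.10.9.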

Additional observations from a re-analysis of the deposited data

How the results depend on the processing

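The 8 called member probe sets and 4 called member genes were again 8 and 4 with SAM, array weights, an intensity trend, the bacterial control and reference gene scales, and each array left out in turn. Among probe sets without a suffix 1 of 5 was called, for 1 gene of 5, and with the probe set brightest in WT 5 of 8 genes were, Ciita being the one added. On the cre scale and at a threshold of 2-fold 5 of 12 probe sets were called, with 3 of 8 genes, and the calls lost in both cases were those of Cd74, the dimmest H2-Ab1 probe set and the dimmer Ciita one. The median log2 fold change of the members, -0.88, was -1.22 in the brighter probe sets, -0.24 without suffixed probe sets, -0.39 on the cre scale and -1.01 on the reference gene scale. The scales moved the median of all probe sets by 0.48 (cre), -0.13 (reference genes) and 0.02 (bacterial controls), a constant added to every probe set, members included. The cre probe sets averaged 14.27 in WT and 13.79 in HDAC11-/- Tregs, near the top of the array range. On the cre scale genes of the transcription factor, costimulatory ligand, T cell, Treg and macrophage lists also gained calls as higher. Over all probe sets, 1138 lower and 876 higher became 331 and 7310 on the cre scale, 1814 and 524 on the reference gene scale, 5070 and 5254 with no fold threshold, and 393 and 253 at 2-fold. Called lower were 701 among the brighter probe sets, and called higher were 497 among probe sets without a suffix, where fewer are tested. Same-numbered arrays of the 2 genotypes correlated at 0.23, -0.02 and 0.16 in their deviations from the group means. Arrays of unlike number correlated at -0.21 to 0.06. Whether the numbers pair the samples cannot be told from so few arrays. With a replicate block 8 member probe sets were called. The causes of these shifts were not tested.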

Other observations

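The probe sets of other genes whose pattern over the 6 arrays lay nearest to the mean of H2-Aa, H2-Ab1, H2-Eb1 and Cd74, by the root mean square difference of centred values, belonged to Carns1, Fbxw2, Tmem176b, Ogt, Serpinb1a, Man2b1, Rpl12, Atp5c1, Scd1 and Oas1b. The root mean square differences were 0.03 to 0.05 on the log2 scale, and Pearson's r was 0.997 or above, over arrays that fall into 2 genotypes and so share the genotype difference. Their log2 fold changes ran from -1.35 in Oas1b, an interferon-induced gene, to -1.16 in Scd1, a fatty acid desaturase. The list mixes genes of unlike kinds, such as Ogt, the O-GlcNAc transferase, and Rpl12, a ribosomal protein gene. Further probe sets of Ogt, from -1.73 to -0.87, Serpinb1a, at -0.76, and Man2b1, at -0.45, lay in the same direction, and those of 3 other genes lay near 0. The other Atp5c1 probe set was at 0.18 beside -1.28, the other Scd1 probe set at -0.09 beside -1.16, and the 5 other Fbxw2 probe sets lay between -0.18 and 0.28 beside -1.27. Tmem176b, with a single probe set, is also on the type 3 lymphoid list. Among the class II genes the probe sets of H2-Aa were at -1.60 and -1.38 and those of H2-Ab1 from -1.43 to -0.97.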
